A study of Saccharomyces cerevisiae with 109 samples.

Results

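The proteasome is the protease that degrades ubiquitin-tagged proteins in the cytosol and nucleus. A barrel of 4 stacked rings forms the 20S core: the outer alpha rings gate the entry, and the inner beta rings hold the active sites. The 19S cap sits on the barrel, where a base with a ring of ATPases unfolds the substrate and a lid removes its ubiquitin. In Saccharomyces cerevisiae the genes of this machine are transcribed under Rpn4, an activator that the finished proteasome itself degrades, which makes a feedback loop between the protease and the supply of its own mRNAs.

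The 35 genes described here were chosen from a list of gene names by their role, and earlier results of these data were known when the list was made: 7 subunits of the alpha ring, 7 of the beta ring, 6 base ATPases, 4 other base subunits, 9 lid subunits, the core assembly factor UMP1 and the transcription factor RPN4. UMP1 and RPN4 encode no subunit of the finished particle, so 33 of the 35 are proteasome subunits in the strict sense. They are 35 of the 5876 nuclear protein-coding genes with values in the files. Of their 3815 values over all libraries 27 were 0, of which 16 were at time 0 and 11 at 5 or 10 min of labelling at 30 °C, none of which entered a test. All 35 passed the filter on low counts in every test, and the R64 annotation places no other gene over any of them.

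The study asked how yeast transcription proceeds at temperatures close to freezing, and whether added reduced glutathione (GSH), an antioxidant, changes it. All libraries came from the wild-type haploid strain W303, MATa with mutations in HIS3, LEU2, URA3, TRP1, ADE2 and CAN1, grown in minimal medium with 2% glucose, and the study's methods give 14 days of incubation for RNA extraction in a section apart from that on 4-thiouracil labelling, so whether this held for these cultures, and for those at 30 °C, is not stated. There were 5 conditions: 1 °C and 5 °C, each with low [GSH] (0 µM added) or high [GSH] (250 µM added), and 30 °C with low [GSH] only. Newly made RNA was labelled with 5 mM 4-thiouracil for 1.5 to 96 h in the cold and 5 to 20 min at 30 °C and then biotinylated and purified, while steady-state RNA was not purified in this way. A fixed amount of Schizosaccharomyces pombe cells with labelled RNA was added to each sample, so values can also be read against this spike-in. There were 15 steady-state and 94 labelled libraries, 15 of the latter from time 0. Each condition and time had 3 replicates, apart from the 3 h and 12 h labellings in the 5 °C high [GSH] series, which had 2. The study describes its replicates in general as biological, from different colonies on different days.

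Steady-state libraries held 7791032 to 32634257 reads of mRNA, and cold labelled libraries after time 0 held 8267811 to 47877835. The labelled 30 °C libraries after time 0 ran from 18937 reads, in replicate 1 at 5 min, to 24823193. At time 0 there were 8368 to 2032862. The strain's labels were checked against mating-type genes: a list of 5 MATa genes summed to 1850 to 4170 mRNA TPM (TPM rescaled over nuclear protein-coding genes alone) in the steady-state libraries. A list of 4 MATalpha genes summed to 9.19 to 13.4 at 30 °C and 70 to 223 in the cold, and 3 meiosis genes summed to 15.4 to 37.9. Since the MATalpha sum moved with temperature, its values stand beside every comparison of cold with 30 °C, and its part in them was not tested.

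Most members carry the DNA element that Rpn4 binds. The element was searched as GGTGGCAAA on both strands in the 300 bases before each start codon. It was found in 27 of the 35 members (77.1%), against 72 of 5875 promoters in the genome (1.23%), and each of the 27 held 1 copy, 75 to 174 bases from the start codon. It was present in 6 of 7 alpha ring genes, 6 of 7 beta ring genes, 6 of 6 base ATPases, 2 of 4 other base subunits and 7 of 9 lid genes. The 8 members without this exact word were PRE5, PUP1, RPN10, RPN13, RPN8, SEM1, UMP1 and RPN4. Absence of the letters says nothing of whether Rpn4 acts on the gene. Outside the members it also stood before ECM29, which encodes a proteasome-associated scaffold, CDC48, UBA1, UBI4 and YAP1, from the lists of related genes used below. The stretches below, read from R64 on the strand of the gene with the element or its reverse complement in capitals, belong to members that return in the comparisons. The first 3 encode alpha ring subunits.
PUP2, chrVII:999221-999259: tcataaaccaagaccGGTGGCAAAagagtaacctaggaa
SCL1, chrVII:475332-475370: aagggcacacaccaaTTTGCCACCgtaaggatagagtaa
PRE6, chrXV:255213-255251: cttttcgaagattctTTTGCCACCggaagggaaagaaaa
The next 3 encode beta ring subunits.
PRE3, chrX:435030-435068: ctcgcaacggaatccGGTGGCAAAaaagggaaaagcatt
PUP3, chrV:349506-349544: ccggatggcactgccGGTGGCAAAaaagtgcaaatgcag
PRE2, chrXVI:732179-732217: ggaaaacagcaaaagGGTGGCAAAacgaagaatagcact
The last 6 encode subunits of the base (RPT1, RPT3 and RPN2) and the lid.
RPT1, chrXI:174043-174081: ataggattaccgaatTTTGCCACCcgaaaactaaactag
RPT3, chrIV:1261490-1261528: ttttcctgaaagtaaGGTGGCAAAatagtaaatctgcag
RPN2, chrIX:220796-220834: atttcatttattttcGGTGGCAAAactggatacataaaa
RPN3, chrV:196838-196876: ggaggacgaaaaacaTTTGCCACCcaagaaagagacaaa
RPN11, chrVI:153254-153292: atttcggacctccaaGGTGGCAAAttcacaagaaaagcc
RPN12, chrVI:252393-252431: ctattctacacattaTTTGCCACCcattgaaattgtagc

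The proteasome mRNAs were abundant at every temperature. Levels are given in mRNA TPM, a length-corrected share of mRNA, so they can be compared between genes. All 35 members lay above the median gene in each of the 5 steady-state conditions. The median member stood at 359.5 mRNA TPM at 1 °C with low [GSH], 369.8 at 1 °C with high [GSH], 330.0 and 312.9 at 5 °C with low and high [GSH], and 309.7 at 30 °C. The median gene stood at 66.93, 64.18, 59.41, 59.06 and 37.59 in the same order. Subunits that occupy the particle in equal numbers did not have equal mRNA levels.

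In the alpha ring, PUP2 was highest at 1 °C with low [GSH], at 779.9 ± 40.3 mRNA TPM (SD, n = 3), and PRE6 lowest at 353.8 ± 25.6, a ratio of 2.2. In the beta ring, whose members include the catalytic subunits PRE3, PUP1 and PRE2, PUP3 stood at 683.4 ± 17.1 and PUP1 at 215.6 ± 22.7, a ratio of 3.17. PUP1 was the lowest beta ring mRNA in all 4 cold conditions but not at 30 °C, where PRE2 was lowest at 287.4 ± 111. Among the base ATPases the levels at 1 °C ran from 260.7 ± 24.5 for RPT4 to 471.3 ± 33.5 for RPT6. RPN13, a ubiquitin receptor of the base, was the highest member at 1 °C, at 843.9 ± 76.8 with low [GSH] and 897.2 ± 76.2 with high [GSH]. At 5 °C its level was 442 ± 8.72 with low [GSH], and at 30 °C it was 388.1 ± 138. RPN11, the lid enzyme that cuts ubiquitin off, was the lowest lid mRNA at 30 °C, at 165.4 ± 57.9, and the highest at 1 °C with high [GSH], at 445.7 ± 49.7. SEM1, the smallest lid subunit, was the highest member at 30 °C, at 581.3 ± 162. At 30 °C the SD includes a shift that all members shared between libraries, described below, so it does not measure how firm this order is. Within each 30 °C library SEM1 was the highest member, at 477.9, 498.0 and 768.1 in replicates 1, 2 and 3. RPN11 was the lowest lid mRNA in each of them, and PRE2 the lowest beta ring mRNA.

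**Figure D1:**
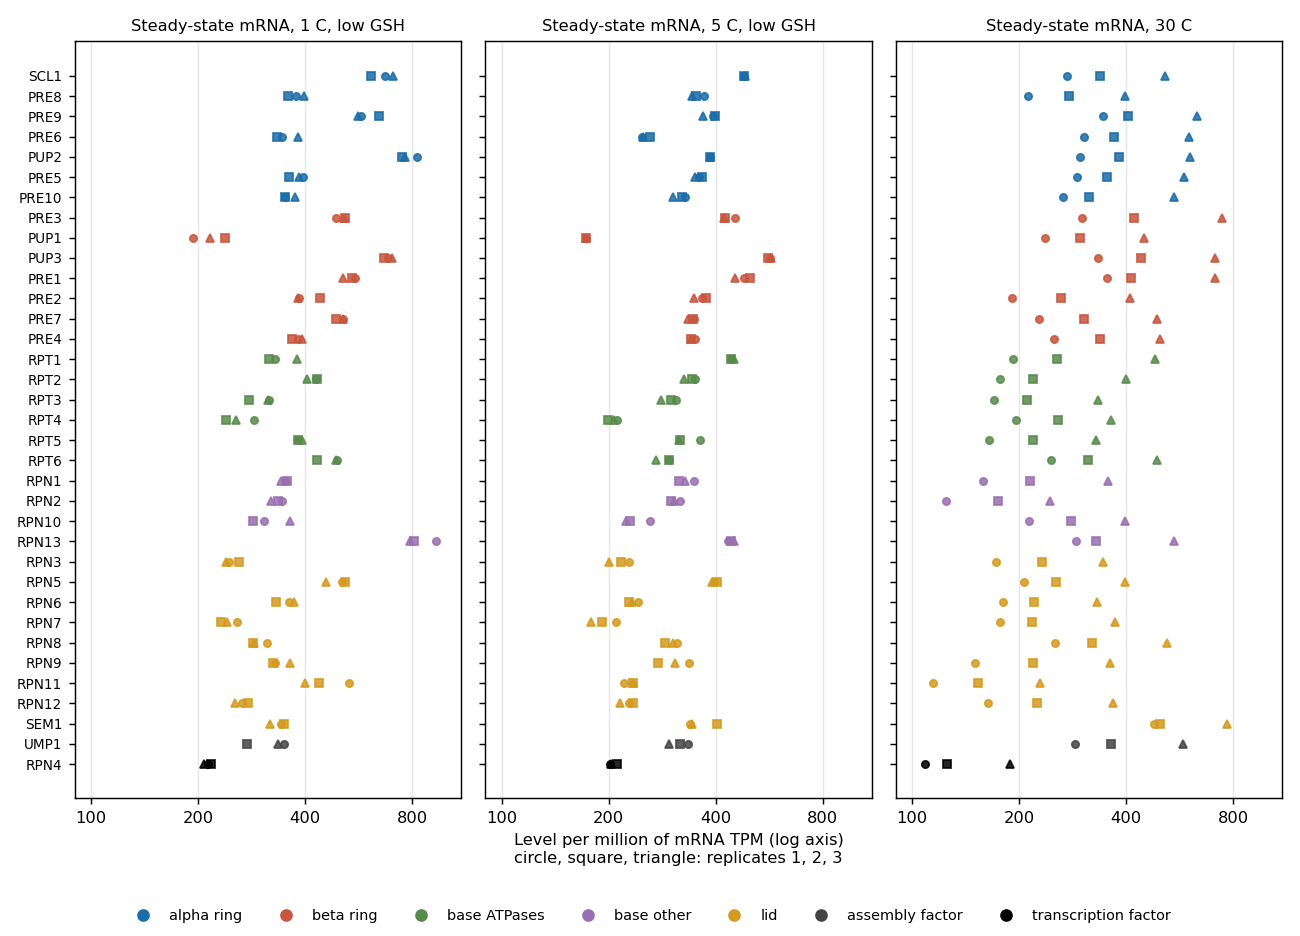
Steady-state level of each of the 35 mRNAs in each library (x axis, mRNA TPM, log axis) at 1 °C and 5 °C with low [GSH] and at 30 °C, with symbols for replicates and colours for the subcomplex. The 3 libraries of a cold condition lie close together, while at 30 °C replicate 3 is the highest for every gene, and RPN13 at 1 °C averages 843.9.

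Summed over the 35 genes, the share of mRNA was larger at 1 °C than at 5 °C. In the steady-state libraries the sum was 1.462%, 1.405% and 1.432% of mRNA TPM at 1 °C with low [GSH], and 1.452%, 1.405% and 1.414% with high [GSH]. At 5 °C it was 1.167%, 1.147% and 1.119% with low [GSH] and 1.15%, 1.105% and 1.098% with high [GSH]. The 6 libraries at 1 °C thus lay above the 6 at 5 °C, and within a temperature the 2 GSH levels overlapped. The median gene also had a larger share at 1 °C, at 66.93 and 64.18 mRNA TPM beside 59.41 and 59.06 at 5 °C. On the TMM scale used below, the members' median log2 fold changes between these temperatures were 0.09 and 0.13. The larger sum is therefore not read as particular to the members. At 30 °C the 3 libraries gave 0.8094%, 1.021% and 1.628%, a range that covered all 12 cold libraries.

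The spread between the 30 °C libraries was carried by the whole set of genes together. All 35 members were highest in replicate 3 and lowest in replicate 1. Of 5494 genes, 2557 (46.5%) had this order. The ratio of replicate 3 to replicate 1 had a median of 2.0 over the members, from 1.61 for SEM1 to 2.51 for RPT1, against a median of 1.19 over all genes. Of the 35 members, 33 were in the tenth of genes with the highest ratio. RPT1, an ATPase of the base, stood at 191.8, 255.8 and 481.7 mRNA TPM in replicates 1, 2 and 3, and the beta ring gene PRE3 at 300.7, 419.6 and 741.8. RPN4 stood at 108.7, 125.0 and 188.7, a ratio of 1.74, and UMP1 at 287.5, 361.5 and 576.1. The related lists moved less on the median: 1.42 for 14 assembly and accessory genes, 1.65 for 24 genes of ubiquitin attachment and delivery and 1.86 for 6 regulators, among which YAP1, an oxidative stress activator, reached 2.69. In the labelled 20 min libraries at 30 °C the commonest order, with replicate 3 highest and replicate 2 lowest, held for 19 of 35 members and 37.1% of all genes. Every comparison with 30 °C below rests on these 3 libraries and is also given without replicate 3 or replicate 1.

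**Figure D2:**
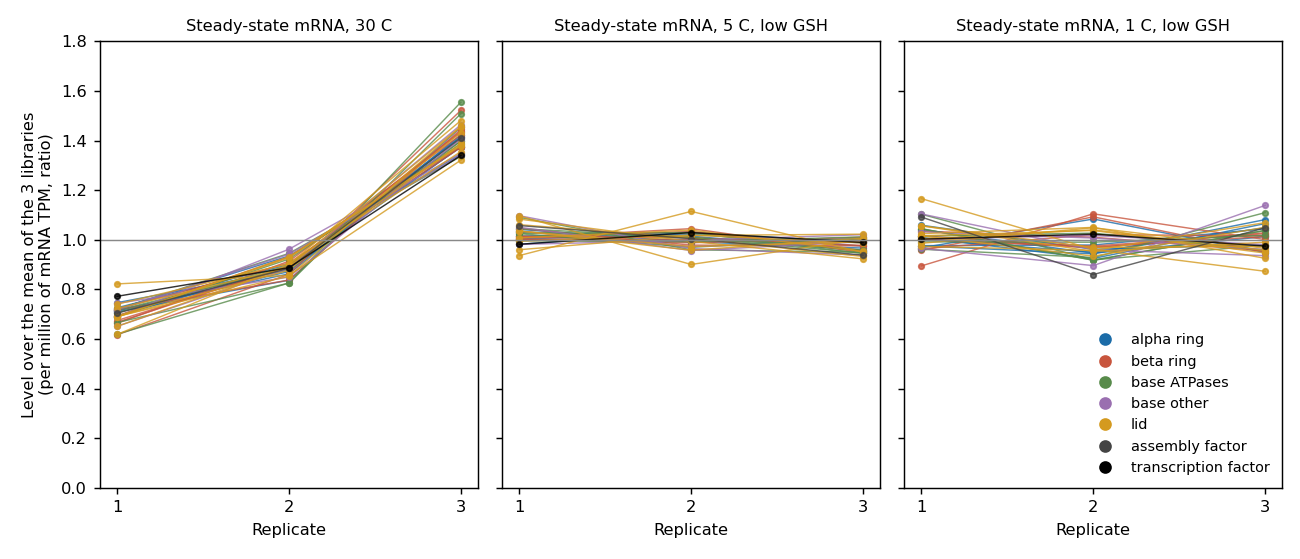
Steady-state level of each of the 35 mRNAs in each replicate, divided by the mean of the 3 libraries of its condition (y axis, ratio), at 30 °C and at 5 °C and 1 °C with low [GSH]. Lines join the values of 1 gene, and replicate numbers have no order. The lines at 30 °C run together from replicate 1 to replicate 3, with a median ratio of 2.0, and stay near 1 in the cold.

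Do cells in the cold hold more or less proteasome mRNA than cells at 30 °C? Relative to the typical gene, they held less. Fold changes below come from edgeR's quasi-likelihood test on estimated counts with TMM scaling, which centres the bulk of genes on no change. For steady-state comparisons each gene's spread was estimated once over all 15 libraries, including those at 30 °C. Between replicates the SD of the median member was 35.7% of its mean mRNA TPM at 30 °C and 3.66% to 5.17% in the cold. For the median gene it was 15.2% and 6.13% to 9.07%. Standard errors against 30 °C may thus be too small and those between cold conditions too large, which was not tested. Values per library are normalised CPM (counts scaled to a common library size) on that scale, which are not corrected for gene length. Of the 35 members, 2 were higher and 19 lower at 1 °C than at 30 °C with low [GSH] (adjusted p under 0.05 over 5697 genes), where 36.9% of all genes were higher and 36.4% lower. The median log2 fold change of the members was -0.40, and that of all genes 0.03. By subcomplex, 5 of 7 alpha ring genes, 4 of 7 beta ring genes, 3 of 6 ATPases, 1 of 4 other base genes and 5 of 9 lid genes fell, as did UMP1.

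The largest fall was that of SEM1. It had 34.1, 35.8 and 32.5 normalised CPM at 1 °C and 89.1, 83.3 and 119 at 30 °C, with no overlap. Its log2 fold change was -1.51 (SE 0.12, edgeR adjusted p 4.33e-08). PUP1, which makes the trypsin-like active subunit, had 121, 144 and 140 at 1 °C and 278, 315 and 450 at 30 °C, a log2 fold change of -1.37 (SE 0.13, edgeR adjusted p 3.87e-07). UMP1, which helps half-barrels mature into the 20S core, had 94.0, 73.5 and 93.5 against 145, 165 and 244, a log2 fold change of -1.09 (SE 0.16, edgeR adjusted p 2.1e-05). The 2 rises were those of RPN11 and RPN13, while RPN10, another ubiquitin receptor, fell (log2 fold change -0.66, SE 0.14, edgeR adjusted p 0.000732). RPN11 had 410, 324 and 318 at 1 °C and 166, 200 and 281 at 30 °C, so the groups did not overlap, and its log2 fold change was 0.70 (SE 0.15, edgeR adjusted p 0.000903). RPN13 had 274, 236 and 241 against 160, 164 and 253, with 30 °C replicate 3 inside the 1 °C range, and its log2 fold change was 0.38 (SE 0.14, edgeR adjusted p 0.0248). This call was lost without 1 °C replicate 1 (0.31) or 30 °C replicate 1 (0.26) or 2 (0.28). RPN4 had 317, 308 and 320 against 304, 314 and 451, which overlapped (log2 fold change -0.18, SE 0.12, edgeR adjusted p 0.194).

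The direction at 1 °C depended on the scale. When summed mRNA reads served as library size, so that values are shares of mRNA, 11 members were higher and 5 lower, and the median was 0.20 while that of all genes was 0.64. With S. pombe reads as library size, where all genes shift up by a median of 2.29, all 35 members were higher, with a median of 1.85. This count goes with the shift of all genes and is not read as particular to the members. On each of these 3 scales the median member lay below the median gene. Without 30 °C replicate 3, 7 were higher and 15 lower (median -0.16), and without 30 °C replicate 1, 1 was higher and 27 lower (median -0.54). These counts stand without the share of all genes called in the same fits, so they show only how far the result rests on single libraries. The MATalpha sum was 89 to 223 mRNA TPM at 1 °C and 9.19 to 13.4 at 30 °C.

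At 5 °C the fall was broader. None of the 35 members was higher and 23 were lower than at 30 °C, where 36.5% of all genes were higher and 37.9% lower, and the median was -0.69 over the members and -0.03 over all genes. With the trend of fold change with coding length subtracted, an alternative added after the data were seen, the member median was -0.46 and that of the short beta ring genes -0.34 in place of -0.66. The alpha ring lost 6 of 7, the beta ring 6 of 7 and the lid 6 of 9, while 2 of 6 ATPases and 2 of 4 other base genes fell. PUP1 had 119, 120 and 119 normalised CPM at 5 °C against 278, 315 and 450 (log2 fold change -1.55, SE 0.14, edgeR adjusted p 1.11e-07). PRE6, an alpha ring gene, had 164, 175 and 166 against 345, 379 and 580 (log2 fold change -1.37, SE 0.15, edgeR adjusted p 9.34e-07). SEM1 had 36.5, 44.4 and 37.6 against 89.1, 83.3 and 119 (log2 fold change -1.30, SE 0.12, edgeR adjusted p 2.23e-07). UMP1 had 98.5, 94.9 and 88.3 against 145, 165 and 244 (log2 fold change -0.98, SE 0.16, edgeR adjusted p 6.34e-05). In none of these did the groups overlap. RPN4, at 327, 348 and 332 against 304, 314 and 451, did not pass (log2 fold change -0.09, SE 0.12, edgeR adjusted p 0.53). With S. pombe reads as library size, where all genes shift up by 0.92, 9 were higher and 0 lower (median 0.23). Without 30 °C replicate 3, 2 were higher and 20 lower (median -0.41), and without replicate 1, 0 were higher and 31 lower. As at 1 °C, the share of all genes called is not given for these fits. The MATalpha sum at 5 °C was 70 to 113 mRNA TPM.

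Members with and without the Rpn4 element were also counted apart. At 1 °C against 30 °C, 13 of the 27 with the element and 6 of the 8 without it fell, with medians of -0.33 and -0.96. At 5 °C against 30 °C these were 16 of 27 and 7 of 8, with medians of -0.61 and -0.92. Of all genes 36.4% and 37.9% fell in these comparisons, and the difference between members with and without the element was not tested. SEM1, PUP1 and UMP1, which fell most at 1 °C, were among the 8.

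Genes that build or supply the proteasome were counted from lists. Of the 14 assembly and accessory genes, 1 was higher and 5 lower at 1 °C than at 30 °C, and 5 were higher and 5 lower at 5 °C. These shares are close to those of all genes at 5 °C (36.5% higher and 37.9% lower), and at 1 °C the share of falls is close to that of all genes (36.4%), so nothing is read from them about the list. PBA1 and IRC25, chaperones of alpha ring assembly, had log2 fold changes of -1.27 and -1.01 at 1 °C and -1.53 and -1.68 at 5 °C. Of the 24 ubiquitin and delivery genes, 5 were higher and 11 lower at 1 °C, and 9 higher and 10 lower at 5 °C. Of all genes 36.9% were higher and 36.4% lower at 1 °C, and 36.5% and 37.9% at 5 °C, and the list was not tested against these shares. RAD23, which shuttles ubiquitinated proteins to the proteasome, had log2 fold changes of -1.14 and -1.12, and CDC48, the segregase that pulls them out of complexes, had -0.85 at 1 °C. UBC5, a ubiquitin-conjugating enzyme, had 1.40 at 5 °C, but it is a close copy of UBC4 and reads could be split between them. Of the 6 regulators, 2 were higher and 1 lower at 1 °C, and 3 were higher at 5 °C. MUB1, which helps to ubiquitinate Rpn4, had 0.91 and 0.78, and PDR3, a drug resistance activator, had 0.88 and 1.07.

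**Figure D3:**
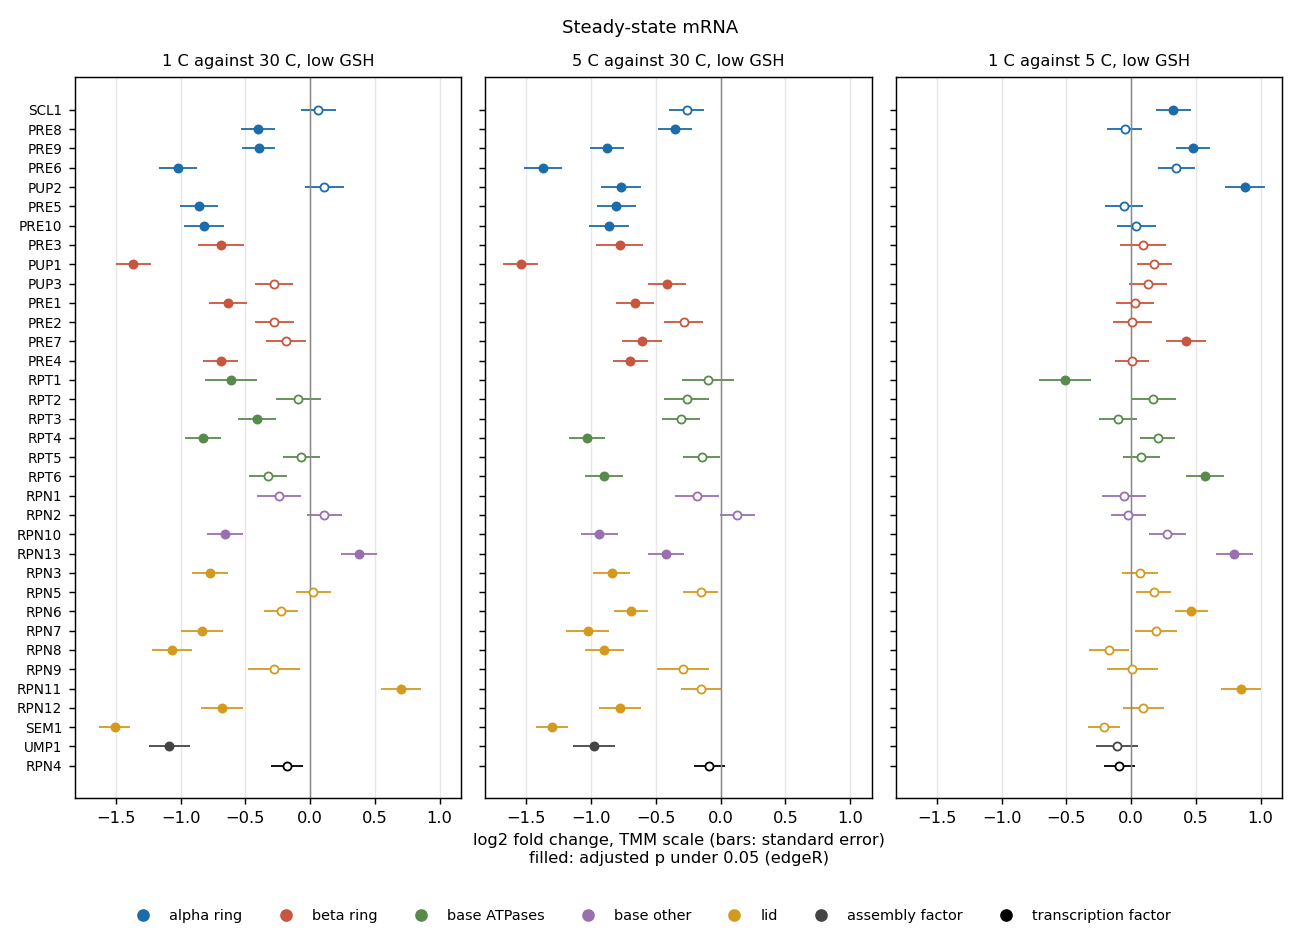
Log2 fold change of each member in steady-state mRNA (x axis, TMM scale, bars show the standard error) for 1 °C against 30 °C, 5 °C against 30 °C and 1 °C against 5 °C with low [GSH]. Filled points passed at an adjusted p of 0.05. At 1 °C against 30 °C, 19 points fell and 2 rose, and at 5 °C against 30 °C, 23 fell.

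Between the cold temperatures, a few subunits were higher at 1 °C than at 5 °C and most did not pass. The spread used in these tests includes that of the 30 °C libraries, as given above, so calls may have been missed. With low [GSH] 8 were higher and 1 lower, against 29.8% and 28.9% of all genes, and with high [GSH] 11 were higher and 1 lower, against 29% and 29.8%. The medians were 0.09 and 0.13 over the members and 0.04 and 0.01 over all genes. The alpha ring had 3 and 4 of its 7 genes higher. The rises were led by the same 3 genes at both GSH levels. PUP2, an alpha ring gene, had 515, 451 and 494 normalised CPM at 1 °C and 262, 267 and 265 at 5 °C with low [GSH] (log2 fold change 0.88, SE 0.15, edgeR adjusted p 0.000206). With high [GSH] it had 578, 468 and 483 against 269, 263 and 269 (log2 fold change 0.93). RPN11 had 410, 324 and 318 against 185, 199 and 199 (log2 fold change 0.85, SE 0.16, edgeR adjusted p 0.000313), and 0.90 with high [GSH]. RPN13 had 274, 236 and 241 against 140, 144 and 147 (log2 fold change 0.80, SE 0.14, edgeR adjusted p 0.000239), and 1.01 with high [GSH]. None of these overlapped between temperatures.

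The ATPase RPT1 went the other way with low [GSH], at 422, 387 and 505 against 618, 625 and 634 (log2 fold change -0.51, SE 0.20, edgeR adjusted p 0.0392), a call lost when any library but 1 °C replicate 3 was left out (-0.52 to -0.43). With high [GSH] the single fall was that of SEM1, at 32.4, 33.6 and 34.4 against 41.8, 46.8 and 44.8 (log2 fold change -0.41, SE 0.12, edgeR adjusted p 0.0101). RPN4 changed little, with log2 fold changes of -0.09 (SE 0.12, edgeR adjusted p 0.538) and -0.05 (SE 0.12, edgeR adjusted p 0.726), and UMP1 had -0.11 and 0.22, neither of which passed. With summed mRNA reads as library size 18 members were higher with low [GSH] and 22 with high [GSH], and 0 were lower in either, while all genes shifted up by 0.33 and 0.29. With S. pombe reads all 35 were higher, beside shifts of 1.36 and 1.31. Of all genes 29.8% were higher and 28.9% lower with low [GSH], and 29% and 29.8% with high [GSH]. Of the lists, the assembly and accessory genes had 4 higher and 6 lower with low [GSH] and 5 and 6 with high [GSH]. The ubiquitin and delivery genes had 2 higher and 6 lower in both, and 2 and 3 regulators fell.

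Adding GSH left no detectable difference in the proteasome mRNAs. In steady-state RNA, edgeR called 0 of 35 members and 0 of 5697 genes (0%) at either temperature, and 0 members had an unadjusted p under 0.05 with edgeR or with DESeq2, which also called 0. Both tools took the spread from all 15 steady-state libraries, including those at 30 °C, where the members varied most. Recovery of known changes was not simulated for these comparisons, so small differences could go unseen. The members' medians were 0.04 at 1 °C and -0.03 at 5 °C, and single members ran from -0.08 to 0.27 and from -0.09 to 0.17. RPN4 had 293, 322 and 343 normalised CPM with high [GSH] and 317, 308 and 320 with low [GSH] at 1 °C (log2 fold change 0.02, SE 0.12). At 5 °C it had 311, 345 and 338 against 327, 348 and 332 (log2 fold change -0.02, SE 0.12). UMP1 had the largest value at 1 °C, with 103, 100 and 112 against 94.0, 73.5 and 93.5 (log2 fold change 0.27, SE 0.16, edgeR adjusted p 0.896). RPN6, a lid subunit, had 0.12 (SE 0.13). The difference between the 2 temperatures' GSH effects, tested as an interaction, was called for 0 members and 0 genes (0%), with 0 members at an unadjusted p under 0.05.

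Labelled RNA was also summed over times by replicate number, taken here as 1 culture although the labels do not state this. With edgeR, 0 of 35 members and 0 of 5807 genes (0%) were called at 1 °C, at 5 °C or in the interaction. DESeq2 also called 0 members in all 3, and 4 genes lower at 1 °C. Unadjusted p under 0.05 was reached by 0 members at 1 °C and 2 at 5 °C with both tools. RPN4 had 369, 340 and 293 with high [GSH] and 352, 379 and 382 with low [GSH] at 1 °C (log2 fold change -0.15, SE 0.09). UMP1 had 126, 141 and 118 against 96.7, 110 and 117 at 5 °C (log2 fold change 0.25, SE 0.11, edgeR adjusted p 0.945). In simulated counts of the 5 °C cultures, 2-fold changes were recovered in 95% of genes and 1.41-fold changes in 66%, so changes below these sizes could go unseen. The simulation changed 100 genes at each size. Recovery of 1 gene changed alone, for which the adjusted threshold is stricter, was not simulated and could be lower.

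Newly made proteasome mRNA was followed over labelling time. The summed share of labelled mRNA TPM at 1 °C with low [GSH] was 1.518% to 1.732% at 6 h, 1.65% to 1.787% at 12 h, 1.437% to 1.598% at 48 h and 1.43% to 1.474% at 96 h. At 5 °C with low [GSH] it was 0.8632% to 0.991% at 1.5 h, 1.098% to 1.229% at 6 h and 0.9759% to 1.089% at 48 h. The lowest library at 1 °C thus lay above the highest at 5 °C. The share of the median gene in these labelled libraries is not given here, so this too is not read as particular to the members. With high [GSH] the ranges were 1.379% to 1.744% at 1 °C from 6 to 48 h, and 0.7541% to 1.167% at 5 °C from 1.5 to 48 h.

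**Figure D4:**
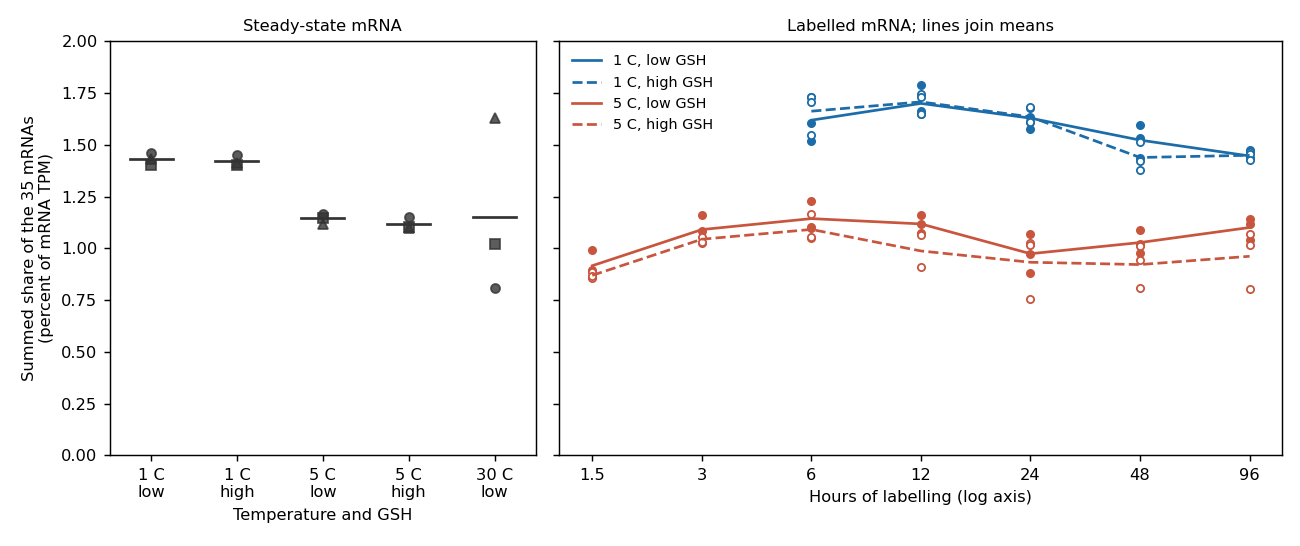
Summed share of the 35 mRNAs (y axis, percent of mRNA TPM) in each steady-state library by condition, with bars at the means, and in each labelled library by hours of labelling (log axis), with lines through the means. All libraries at 1 °C lie above those at 5 °C, and the 30 °C libraries run from 0.8094% to 1.628%. At steady state the share of the median gene was also larger at 1 °C than at 5 °C.

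From early to late labelling, more core than lid genes were called higher, though the difference between core and lid was not tested. At 1 °C with low [GSH], 14 members were higher and 2 lower at 48 h than at 6 h, against 25.6% and 25.5% of all genes. With high [GSH] 14 were higher and 5 lower, against 26.1% and 25.5%. At 5 °C from 1.5 h to 48 h, 19 were higher and 2 lower with low [GSH], against 32.1% and 31.8%, and 16 were higher and 2 lower with high [GSH], against 32% and 30.5%. The medians of the members were 0.16, 0.15, 0.35 and 0.22 in that order, and those of all genes -0.02, 0.01, 0.00 and 0.01. The alpha ring had 5, 7, 6 and 6 of its 7 genes higher and the beta ring 3, 3, 6 and 4 of 7. The ATPases had 3, 2, 3 and 3 of 6. The lid had 1, 1, 2 and 1 of 9 higher, with medians of -0.07, -0.17, 0.00 and -0.06. On the S. pombe scale all genes shifted up by 1.48, 1.43, 2.13 and 2.57 and 34, 35, 35 and 35 members were higher, so the falls below are falls relative to other genes. Libraries of different times were taken as independent.

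PUP3, a beta ring gene, had 192, 234 and 228 normalised CPM at 6 h and 374, 378 and 343 at 48 h at 1 °C with low [GSH] (log2 fold change 0.74, SE 0.14, edgeR adjusted p 4.33e-05). At 5 °C it had 135, 110 and 95.7 at 1.5 h and 323, 259 and 272 at 48 h (log2 fold change 1.32, SE 0.14, edgeR adjusted p 1.1e-09), and with high [GSH] its log2 fold changes were 1.03 at 1 °C and 1.21 at 5 °C. It rose without overlap in all 4 series. PRE3, which makes the caspase-like active subunit, had 147, 141 and 120 at 6 h and 262, 234 and 228 at 48 h at 1 °C (log2 fold change 0.83, SE 0.17, edgeR adjusted p 0.000232). SCL1, an alpha ring gene, had 334, 246 and 230 against 488, 445 and 447 (log2 fold change 0.77, SE 0.15, edgeR adjusted p 9.44e-05). With high [GSH] PRE3 had a log2 fold change of 0.92 and SCL1 one of 0.78. At 5 °C SEM1 led, with 18.1, 18.5 and 11.9 at 1.5 h and 40.6, 34.03 and 54.6 at 48 h (log2 fold change 1.41, SE 0.25, edgeR adjusted p 9.69e-06), and 1.61 with high [GSH].

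The falls were in the cap. RPT3, an ATPase, had 457, 424 and 482 at 6 h and 367, 377 and 350 at 48 h at 1 °C with low [GSH] (log2 fold change -0.32, SE 0.10, edgeR adjusted p 0.00742). RPN12, a lid subunit, had 162, 162 and 149 at 1.5 h and 121, 128 and 122 at 48 h at 5 °C (log2 fold change -0.35, SE 0.14, edgeR adjusted p 0.0261), a call lost without replicate 1 or 2 at 1.5 h or replicate 1 or 3 at 48 h. With high [GSH] the lid gene RPN3 had 552, 461 and 483 at 6 h and 380, 374 and 345 at 48 h at 1 °C (log2 fold change -0.45, SE 0.13, edgeR adjusted p 0.00494), and -0.37 at 5 °C (edgeR adjusted p 0.0133), lost without 48 h replicate 1 or 1.5 h replicate 2. RPN2, the large scaffold of the base, had 1034, 945 and 981 against 823, 776 and 665 at 1 °C (log2 fold change -0.39, SE 0.12, edgeR adjusted p 0.00895). Without 6 h replicate 1 both RPN3 (-0.33) and RPN2 (-0.32) missed the threshold at 1 °C, and RPN2 also without 48 h replicate 3 (-0.30). In these 4 genes the groups did not overlap.

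RPN4 fell over labelling time in all 4 cold series on the TMM scale, whereas on the S. pombe scale its log2 fold changes were above 0 and passed the test in 3 of the 4, all but 1 °C with low [GSH]. At 1 °C with low [GSH] its labelled mRNA had 489, 543 and 572 normalised CPM at 6 h and 262, 315 and 293 at 48 h (log2 fold change -0.88, SE 0.14, edgeR adjusted p 4.45e-06). At 5 °C it had 380, 369 and 324 at 1.5 h and 265, 219 and 235 at 48 h (log2 fold change -0.58, SE 0.14, edgeR adjusted p 0.000505). With high [GSH] it had 463, 455 and 435 against 329, 266 and 232 at 1 °C (log2 fold change -0.71, SE 0.14, edgeR adjusted p 9.16e-05). At 5 °C with high [GSH] it had 313, 320 and 342 against 245, 202 and 226 (log2 fold change -0.53, SE 0.14, edgeR adjusted p 0.00123). It fell without overlap in all 4 series. UMP1 rose at 5 °C, from 49.7, 62.0 and 43.2 to 113, 116 and 137 with low [GSH] (log2 fold change 1.24, SE 0.22, edgeR adjusted p 1.18e-05), and by 1.27 with high [GSH]. At 1 °C it had 0.63 (SE 0.21, edgeR adjusted p 0.0139; 0.45 and not past the threshold without 6 h replicate 3) with low [GSH] and 0.17 (SE 0.17, edgeR adjusted p 0.408) with high [GSH].

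**Figure D5:**
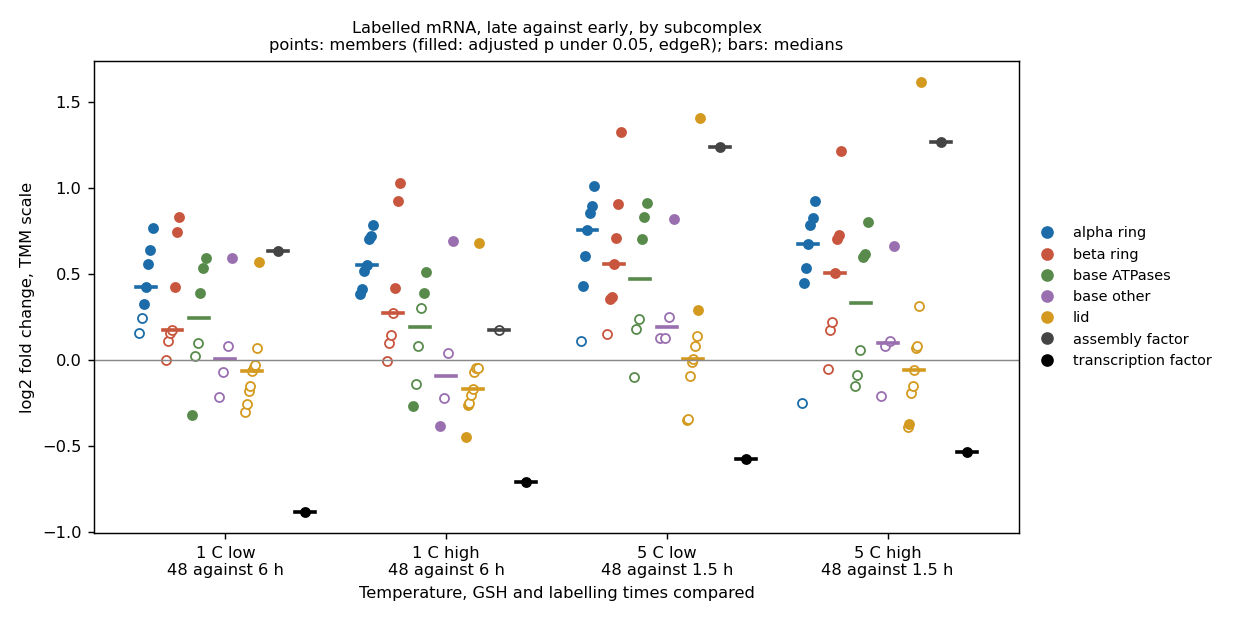
Log2 fold change of labelled mRNA from early to late labelling (y axis, TMM scale) for each member, grouped by subcomplex with bars at the medians, in the 4 cold series. Filled points passed at an adjusted p of 0.05. The alpha ring medians lie at 0.42 or above, the lid medians between -0.17 and 0.00, and RPN4 between -0.88 and -0.53.

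Gene length and the first time point both moved with these results. Over all genes, log2 fold change and coding length had a Spearman correlation of -0.52 and -0.56 at 1 °C with low and high [GSH] and of -0.32 and -0.28 at 5 °C, a description across 5770 or 5779 genes of the same libraries. The alpha and beta ring genes are short, at 597 to 867 bases of coding sequence, the ATPases have 1218 to 1404, and the median gene has 1185. With the length trend subtracted in the same way, the alpha ring medians with low and high [GSH] were 0.14 and 0.22 at 1 °C, 0.54 and 0.48 at 5 °C. Those of the beta ring came to -0.08 and -0.09 at 1 °C, 0.19 and 0.15 at 5 °C, so at 1 °C the beta ring no longer had a positive median. Those of the lid came to -0.15 and -0.27 at 1 °C, -0.04 and -0.09 at 5 °C. Over all 35 members the medians became 0.03 and -0.06 at 1 °C, 0.22 and 0.19 at 5 °C. The part of length in the rise of the rings was not tested further. When 6 h replaced 1.5 h as the first time at 5 °C, 5 members were higher and 2 lower with low [GSH] (median -0.01), and 3 were higher and 7 lower with high [GSH] (median -0.09). The counts of rises at 5 °C thus depended on the 1.5 h libraries. The share of all genes called with 6 h as first time is not given beside them, so the drop is not read as particular to the members.

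The related lists did not all follow the rings. From 1.5 to 48 h at 5 °C 32.1% of all genes were higher and 31.8% lower with low [GSH], and 32% and 30.5% with high [GSH]. In labelled RNA from 1.5 to 48 h at 5 °C, 14 of the 24 ubiquitin and delivery genes were higher and 5 lower on the TMM scale at either GSH level. Of these, UBC4 and UBC1, both ubiquitin-conjugating enzymes, had log2 fold changes of 1.33 and 1.18 with low [GSH], and UBC4 shares near-identical sequence with UBC5. At 1 °C 7 were higher and 9 lower with low [GSH], and 5 and 9 with high [GSH]. Of all genes 25.6% were higher and 25.5% lower there with low [GSH], and 26.1% and 25.5% with high [GSH]. Of the 14 assembly and accessory genes, 6 were higher and 5 lower at 5 °C with low [GSH], with SPG5, a proteasome regulator of stationary phase, at 1.46 and POC4, an assembly chaperone, at -1.27. Counts for this list in the other series were 5 and 5, 5 and 6, and 4 and 4. None of the 6 regulators rose in any of the 4 series. At 1 °C 4 fell with low [GSH] and 6 with high [GSH], and at 5 °C 4 fell at either level, with UBR2, the ligase that marks Rpn4 for degradation, and PDR3 both at -0.89 with low [GSH].

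At a matched labelling time of 6 h, 13 members were higher and 2 lower at 1 °C than at 5 °C with low [GSH], against 27.7% and 25.3% of all genes, with medians of 0.22 over the members and 0.04 over all genes. RPN4 differed most. It had 489, 543 and 572 normalised CPM at 1 °C and 282, 234 and 231 at 5 °C (log2 fold change 1.10, SE 0.14, edgeR adjusted p 9.27e-08). RPN11 had 306, 288 and 311 against 189, 184 and 170 (log2 fold change 0.74, SE 0.11, edgeR adjusted p 1.51e-06), and RPN13 had 167, 117 and 162 against 93.0, 99.1 and 94.2 (log2 fold change 0.64, SE 0.15, edgeR adjusted p 0.000583). RPT1 had 373, 355 and 434 against 562, 497 and 494 (log2 fold change -0.42, SE 0.11, edgeR adjusted p 0.00241). SCL1 had 334, 246 and 230 against 355, 358 and 343 (log2 fold change -0.38, SE 0.15, edgeR adjusted p 0.0321), a call lost when any library but 1 °C replicate 1 was left out (-0.40 to -0.28). None of these overlapped. With summed mRNA reads as library size 23 were higher and 0 lower, beside a shift of 0.25 over all genes, and with S. pombe reads 18 and 0, beside 0.83. UMP1 did not pass (log2 fold change -0.18, SE 0.21, edgeR adjusted p 0.503). Of the regulators 2 were higher, and of the assembly and accessory genes 4 were higher and 4 lower.

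Set against what was already in the cell, the newest labelled RNA held less proteasome mRNA. At 1 °C, 0 of 35 members were higher and 14 lower in RNA labelled for 6 h than in steady-state RNA, where 15.8% of all genes were higher and 19.9% lower. At 5 °C and 1.5 h, 0 were higher and 28 lower, against 28.9% and 28.3%. At 30 °C the 20 min libraries were used, the longest labelling there, because the 5 min libraries were shallow. In that comparison 0 were higher and 20 lower, against 11.1% and 14.7%. The medians over the members were -0.39, -0.79 and -0.62, and those over all genes were 0.00, 0.03 and 0.02. Labelled RNA was purified and steady-state RNA was not, so the age of the RNA and its preparation cannot be told apart. With summed mRNA reads as library size 8, 22 and 6 were lower and 2, 0 and 1 higher, beside shifts of 0.21, 0.19 and 0.39 over all genes. With S. pombe reads 1, 34 and 0 were lower, beside shifts of -0.43, -1.25 and -0.03. Log2 fold change rose with coding length over all genes, with a Spearman correlation of 0.37, 0.24 and 0.50, and the medians without this trend were -0.32, -0.68 and -0.43.

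At 5 °C PRE2, which makes the chymotrypsin-like active subunit, had 98.5, 97.2 and 104 normalised CPM at 1.5 h and 298, 308 and 283 at steady state (log2 fold change -1.57, SE 0.16, edgeR adjusted p 2.65e-07). PUP3 had 121, 95.5 and 81.9 against 294, 292 and 297 (log2 fold change -1.56, SE 0.20, edgeR adjusted p 2.55e-06), and SEM1 had 16.2, 16.1 and 10.2 against 38.4, 46.4 and 39.2 (log2 fold change -1.54, SE 0.25, edgeR adjusted p 4.18e-05). All 7 alpha ring genes, 6 of 7 beta ring genes, 5 of 6 ATPases, 4 of 4 other base genes and 5 of 9 lid genes fell. At 1 °C PRE3 had 125, 118 and 101 against 249, 250 and 273 (log2 fold change -1.17, SE 0.22, edgeR adjusted p 0.000476). RPN13 and PUP2 had -1.07 (edgeR adjusted p 0.000455) and -1.05 (edgeR adjusted p 0.000205). At 30 °C SEM1 had 26.8, 40.4 and 32.4 against 94.9, 87.4 and 121 (log2 fold change -1.61, SE 0.24, edgeR adjusted p 0.000182), and PRE3 had 212, 153 and 186 against 290, 358 and 576 (log2 fold change -1.15, SE 0.22, edgeR adjusted p 0.00109). In the members named with library values here, labelled and steady-state libraries did not overlap.

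UMP1 fell at 5 °C, at 44.6, 53.7 and 37.0 against 104, 99.2 and 92.1 (log2 fold change -1.12, SE 0.26, edgeR adjusted p 0.00112), and at 30 °C, at 44.3, 96.0 and 83.3 against 155, 173 and 248 (log2 fold change -1.37, SE 0.26, edgeR adjusted p 0.00108). At 1 °C it had -0.46 (SE 0.25, edgeR adjusted p 0.166). RPN4 did not pass at any temperature, with 414, 454 and 483 at 6 h against 336, 318 and 340 at 1 °C (log2 fold change 0.44, SE 0.18, edgeR adjusted p 0.0635). Its values were -0.17 (SE 0.18) at 5 °C and 0.29 (SE 0.18) at 30 °C. In simulated counts of the 5 °C comparison, 2-fold changes were recovered in 51% of genes and 1.41-fold changes in 4%. A member that did not pass here could thus still differ. Without steady-state replicate 3 at 30 °C 12 members were lower there (median -0.38), and without replicate 1 24 were lower, counts given without the share of all genes called. Of the 24 ubiquitin and delivery genes 9, 15 and 5 were lower at 1, 5 and 30 °C, beside 19.9%, 28.3% and 14.7% of all genes. At 5 °C UBC5 had -1.88 and UBC4 -1.78. In that comparison SPG5 had -1.84 and POC4 1.68, and PDR1, a drug resistance activator, had 0.82 (-0.45 with S. pombe reads as library size). Of the 6 regulators 0 were lower at any temperature, and 0, 1 and 3 were higher.

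Half-lives were fitted to the rise of each labelled mRNA, as TPM over the summed S. pombe TPM with time 0 subtracted, in 6 cultures at each cold temperature. The fit assumes constant synthesis and decay, so a half-life is a description of the curve. The median over the members was 8.53 h at 1 °C, beside 8.22 h for all genes, and 7.52 h at 5 °C, beside 6.60 h. At 1 °C the longest were PUP3 at 20.9 h (12.4 to 31.4 h over the 6 cultures), PRE3 at 16.9 h (11.6 to 39.9 h) and SEM1 at 16.5 h (7.99 to 95.2 h). The shortest were RPN4 at 4.25 h (1.08 to 6.4 h), RPN3 at 5.89 h (3.17 to 7.02 h) and RPN8, a lid subunit, at 6.28 h (4.03 to 8.44 h). At 5 °C the longest were the same genes, PRE3 at 11.5 h (6.14 to 28.0 h), PUP3 at 11.0 h (7.01 to 71.9 h) and SEM1 at 10.6 h (3.71 to 97.8 h). The shortest there were RPT4 at 3.25 h (1.68 to 51.7 h), RPN4 at 3.26 h (0.832 to 71.9 h) and RPN6 at 3.37 h (1.57 to 20.1 h). The ranges over cultures at 5 °C overlapped, but each culture held values for all of these genes. PUP3, PRE3 and SEM1 each had a longer half-life than RPN6 in all 6 cultures. Against RPT4 and RPN4 the order did not always hold: with high [GSH] in replicate 1 these had 51.7 and 71.9 h, beside 28.0 h for PRE3. The order among the longest and among the shortest changed between cultures.

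The cultures differed, more so at 5 °C than at 1 °C. The median member had 8.6, 12.7 and 8.76 h in the 1 °C cultures with low [GSH] and 11.8, 7.7 and 7.28 h with high [GSH]. At 5 °C it had 4.23, 2.67 and 8.73 h with low [GSH] and 35.6, 12.7 and 6.14 h with high [GSH], where replicate 1 had 4 labelled times in place of 6 and UMP1 reached the upper bound of 960 h. The GSH levels overlapped at both temperatures, and 1 °C and 5 °C overlapped. With 96 h included, the member median was 6.53 h at 1 °C and 20.1 h at 5 °C. Curves simulated with 10% noise returned a median of 23.8 h at 1 °C where 24 h was put in. With the lowest and highest 10% of these fits set aside, they ran from 15.8 to 42.3 h. At 5 °C, where 8 h was put in, the median was 7.82 h and the same range 6.28 to 10.2 h. The 24 h put in at 1 °C lies above every member's median there (4.25 to 20.9 h). Recovery of half-lives near or below the first labelling time there, 6 h, as for RPN4 and RPN3, was thus not tested.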

How the data were processed

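The authors ran Salmon against transcripts of both yeasts, with build R64 in the submitters' processing notes, and deposited 1 file per library with estimated counts and TPM. The deposited TPM values were divided by their sum over nuclear protein-coding genes for levels and shares. The deposited estimated counts were rounded to whole numbers and tested with edgeR 4.0.16 in R 4.3.3 (filterByExpr, TMM, quasi-likelihood test, Benjamini-Hochberg adjustment over all genes tested, threshold 0.05). Steady-state, low [GSH] labelled, high [GSH] labelled, culture-summed and newest-against-steady-state libraries were fitted separately. Within a fit all libraries shared 1 estimate of spread per gene, so an error does not measure the spread of the 2 groups compared alone. The tests were checked on simulated counts: at 5 °C with low [GSH] over labelling time, 87.9% of genes changed 2-fold and 37% changed 1.41-fold were recovered. At 1 °C with high [GSH] over labelling time these were 76% and 26%. For steady-state RNA at 1 °C against 30 °C they were 88.9% and 53%. In the newest RNA against steady state at 5 °C they were lowest, at 51% and 4%. Steady-state values compare the same libraries across comparisons, so comparisons with 30 °C share those 3 libraries.

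The members and lists were chosen with earlier results of these data known. RPN4 and UMP1 are named in every comparison, with up to 3 members that rose most and 3 that fell most among those past the threshold, or the 2 with the smallest adjusted p where none passed. RPN13, SEM1 and others named only for a level are the highest or lowest of a subcomplex. Pathway genes are the 2 past the threshold with the largest change in each list. Half-lives were fitted in Python 3.11.15 with scipy 1.17.1. Promoter letters were read from the R64 genome. Of 107 replicate pairs, 0 were identical. Alternatives were DESeq2 1.42.0, no count filter, other library sizes, a replicate block, each library left out, 6 h as first time, 96 h included, the S. pombe denominator, counts in place of TPM and, added after the data were seen, removal of the coding-length trend.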

Additional observations from a re-analysis of the deposited data

How the results depend on the processing

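Counts of members in this section stand without the share of all genes called, so none is read as particular to the members. With no count filter all 36 counts of members called stayed within 1.5 times of those reported, and all 18 medians kept their direction. With DESeq2 33 of the 36 did, and 3 differed: lower members were 2 for 1 °C against 5 °C with high [GSH] and 5 at 6 h, and 1 was higher in the newest RNA at 1 °C. Same-numbered replicates correlated from -0.16 to 0.43 in their deviations, over 0.1 in 13 of 48 pairs, and the main tests did not take the numbers as pairing. In the GSH comparisons, however, every same-numbered pair was above 0. These ran from 0.04 to 0.17 at steady state and from 0.02 to 0.43 in labelled RNA. Pairs of different numbers ran from -0.17 to 0.02 and from -0.52 to 0.45. With the replicate number as a block the same 3 counts were 2, 4 and 1, and the other 33 stayed within 1.5 times. The counts of the GSH comparisons were among these 33 and did not change.

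With summed mRNA reads as library size, 11 members were higher and 5 lower at 1 °C against 30 °C (median 0.20, RPN4 0.42), and 1 was higher at 5 °C against 30 °C. At 1 °C against 5 °C 18 were higher and 0 lower with low [GSH], 22 and 0 with high [GSH], and 23 and 0 at 6 h. In the newest RNA 2 were higher and 8 lower at 1 °C, and 1 and 6 at 30 °C.

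With S. pombe reads as library size, 35 members were higher and 0 lower at 1 °C against 30 °C (median 1.85), with RPN4 at 2.07, UMP1 at 1.18, SEM1 at 0.73, PUP1 at 0.86, PBA1 at 0.78, IRC25 at 1.29, RAD23 at 1.11 and CDC48 at 1.40. At 5 °C against 30 °C 9 were higher and 0 lower (median 0.23, RPN4 0.84). At 1 °C against 5 °C 35 were higher and 0 lower at both GSH levels, with RPN4 at 1.23, UMP1 at 1.25 and RPT1 at 0.82 with low [GSH], and RPN4 at 1.21 and SEM1 at 0.86 with high [GSH]. Over labelling time at 1 °C 34 were higher and 0 lower with low [GSH] (RPN4 0.61, RPT3 1.15) and 35 and 0 with high [GSH] (RPN4 0.71, RPN3 0.99, RPN2 1.03). At 5 °C 35 were higher and 0 lower at both, with RPN4 at 1.55, RPN12 at 1.79, POC4 at 0.88, UBR2 at 1.27 and PDR3 at 1.26 with low [GSH], and RPN4 at 2.03 and RPN3 at 2.18 with high [GSH]. At 6 h 0 were lower (RPT1 0.41, SCL1 0.38). In the newest RNA 1 was lower at 1 °C and 0 at 30 °C, and PDR1 had -0.45 at 5 °C.

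With 6 h in place of 1.5 h at 5 °C, 5 members were higher with low [GSH] (median -0.015), and 3 were higher and 7 lower with high [GSH] (median -0.088). Without the coding-length trend the median at 1 °C with high [GSH] over labelling time was -0.060. With 96 h included the half-life at 5 °C was 20.1 h. As a share of estimated counts the members took 1.452% at 1 °C with high [GSH], and 1.063% and 1.042% at 5 °C with low and high [GSH]. The causes were not tested.

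Leaving out each library in turn gave 1 to 7 higher members at 1 °C against 30 °C and 0 to 2 at 5 °C against 30 °C. Lower members ran from 0 to 1 for 1 °C against 5 °C with low [GSH], 1 to 3 at 6 h, 1 to 3 and 1 to 4 over labelling time at 5 °C with low and high [GSH], 1 to 6 at 1 °C with high [GSH], and 12 to 24 in the newest RNA at 30 °C. Of 720 fold changes of named genes with a library left out, 691 kept their side of the threshold. PBA1 at 1 °C against 30 °C missed it without 1 °C replicate 3 (-1.03) or 30 °C replicate 3 (-0.90), RPN4 there passed without 30 °C replicate 1 (-0.28), and PDR1 missed it without 1.5 h replicate 3 (0.74) or steady-state replicate 2 (0.80) or 3 (0.82).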
